A study of Mus musculus with 4 samples.

Results

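The genes of 10 transcription factors of heart development were examined in whole mouse embryos with and without Ddx6, which encodes an RNA helicase of mRNA decay and translational repression. The 10 genes, Nkx2-5, Gata4, Gata5, Gata6, Tbx5, Tbx20, Hand1, Hand2, Isl1 and Mef2c, were taken by symbol from a table of 24421 genes, and all 10 passed the minimum of 10 reads in at least 1 library, as 14393 genes in all did. Polyadenylated RNA of whole ICR embryos was sequenced in 4 libraries. There was 1 library of wild-type embryos at embryonic day 7.5 (E7.5 WT), 1 of wild-type embryos at embryonic day 8.5 (E8.5 WT), and 2 of Ddx6 -/- embryos at embryonic day 8.5 (KO1 and KO2). The mutants were homozygous for a Ddx6 allele from which CAG-Cre had removed a floxed exon, and came from crosses of heterozygous mice. By the study's description, KO1 pooled 1 embryo from before head-fold formation with 1 that had a head fold, and KO2 pooled 3 embryos from before that stage. The number of embryos in the wild-type libraries is not given in the sources used here. By the study's methods, yolk sac or other extraembryonic tissue of E8.5 embryos served for genotyping. How much such tissue stayed in each library is not given.

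Libraries held between 8198402 and 12562640 reads. Values listed in turn below are those of E7.5 WT, then E8.5 WT, then KO1 and then KO2. Ddx6 had in turn 2943, 5715, 706 and 929 reads, and was thus 5.53-fold and 6.10-fold lower in KO1 and KO2 than in E8.5 WT. KO2 stood apart in its content of trophoblast giant cell markers. The 5 of 8 such markers with enough reads summed in turn to 35.3, 1.22, 2.62 and 735 CPM (counts scaled to library size), and 3, 5, 4 and 1 of the 8 were at 0. Of these sums Ascl2, which is not specific to giant cells, gave in turn 30.1, 0.814, 1.31 and 4.43 CPM. The cardiomyocyte markers Actc1, Myl7, Myl4, Tnnt2, Tnnc1, Tnni1, Myh6, Myh7, Ttn and Ryr2 were all below E8.5 WT in KO2. Their log2 changes there ran from -0.64 (Myl7) to -4.53 (Ttn). In KO1 all but Tnni1 (1.13) were below it, from -0.40 (Tnnt2) to -3.62 (Myh6). Actc1, which encodes cardiac alpha-actin, had in turn 26, 799, 50 and 45 reads. The troponin gene Tnnt2 had 3, 347, 180 and 69, and the troponin gene Tnni1 had 20, 168, 253 and 76. In RNA of whole embryos, fewer cardiac cells and less RNA per cell cannot be told apart.

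The heart forms from lateral mesoderm that leaves the primitive streak, gathers in the cardiac crescent and folds into a tube. Cells of the first heart field make the early tube and the left ventricle, while cells of the second heart field are added later to the outflow tract, right ventricle and atria. The 10 factors bind one another's enhancers and the genes of the contractile apparatus, and act in shifting combinations rather than in a single line. Nkx2-5 (NK2 homeodomain), Tbx5 and Tbx20 (T-box) and Mef2c (MADS box) act in cardiac progenitors and muscle, Isl1 (LIM homeodomain) marks the second heart field, and Gata4, Gata5 and Gata6 (zinc finger) and Hand1 and Hand2 (bHLH) act in the heart and also outside it. Gata4 and Gata6 are also known from extraembryonic endoderm, and Hand1 from extraembryonic mesoderm and trophoblast giant cells.

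Levels were first compared between genes as CPM per kilobase of transcript (RPKM). Hand1 was the most abundant of the 10 in every library, at 114, 95.3, 222 and 174 RPKM in turn. Gata4 was next in every library, between 34.0 and 41.5 RPKM. Hand2 and Gata6 held the following places and exchanged them between libraries. In E8.5 WT, Mef2c, Gata5, Nkx2-5, Tbx20 and Isl1 lay close together, between 8.76 and 11.7 RPKM, and Tbx5 was lowest at 2.56. With 1 library a stage, the spread between embryos behind this order is unknown. The lowest place was held by Tbx5 in E7.5 WT, E8.5 WT and KO2, and by Nkx2-5 in KO1.

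**Figure D1:**
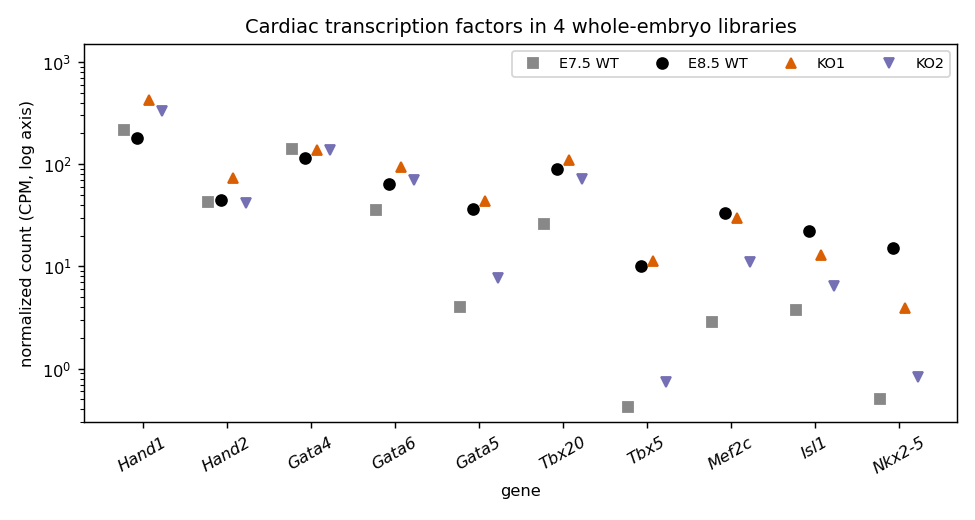
Normalized counts (CPM, log axis) of the 10 genes, with 1 point for each of the 4 libraries. Nkx2-5 falls from 15.3 CPM in E8.5 WT to 3.93 in KO1 and 0.821 in KO2, Gata5, Tbx5 and Mef2c are lower in KO2 than in KO1 and E8.5 WT, and Hand1 is highest in the KO libraries.

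The comparison of the wild-type stages, a day of development apart, set 1 library against 1. These libraries also differed in the sum of the trophoblast giant cell list, Ascl2 included, at 35.3 CPM in E7.5 WT and 1.22 CPM in E8.5 WT. The maternal decidua list stood at 194 and 23.6 CPM. Of its genes, Prl8a2 had 110.8 and 2.116 CPM, Des 66.59 and 11.31, Cryab 14.97 and 8.299, and Dcn 1.093 and 1.871. The part of such tissue in the changes below was not tested. Genes with a log2 change above 1 or below -1 were called, and the 95% interval given with a change covers counting error only. Folds are plain ratios of CPM, while log2 changes carry a prior count of 2 that makes those of genes with few reads smaller. Of the 10 genes, 6 were higher in E8.5 WT than in E7.5 WT, where 12.2% of all genes kept were higher, and 0 were lower, where 7.82% of all were. The median log2 change of the 10 was 2.14, against -0.02 over all genes kept. Nkx2-5 changed most, from 6 to 188 reads, a 30.3-fold difference (log2 interval 3.77 to 6.39). Tbx5 had 5 and 124 reads, a 24.0-fold difference. Mef2c, Gata5, Isl1 and Tbx20 were 11.8-fold, 8.99-fold, 5.83-fold and 3.48-fold higher. Gata6 was below the threshold with a log2 change of 0.83. Hand1, Hand2 and Gata4, already abundant at E7.5, differed by -0.25, 0.07 and -0.29.

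The KO libraries were then compared with E8.5 WT. In KO1, Nkx2-5 was the only one of the 10 called lower and Hand1 the only one called higher, where 3.31% and 4.97% of all genes were called lower and higher. In KO2, Nkx2-5, Gata5, Tbx5, Isl1 and Mef2c were called lower, 5 of 10 against 5.91% of all genes, and 0 were called higher, against 9.41%. Called in both KO libraries were 1 lower (1.79% of all genes), which was Nkx2-5, and 0 higher (3.44% of all). The median log2 change of the 10 was 0.27 in KO1 and -0.96 in KO2, against -0.01 and -0.001 over all genes kept. At any size, Nkx2-5, Isl1 and Mef2c were below E8.5 WT in both KO libraries, 3 genes where 37.6% of all were, and Gata4, Gata6 and Hand1 were above it in both, where 36.3% of all were.

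**Figure D2:**
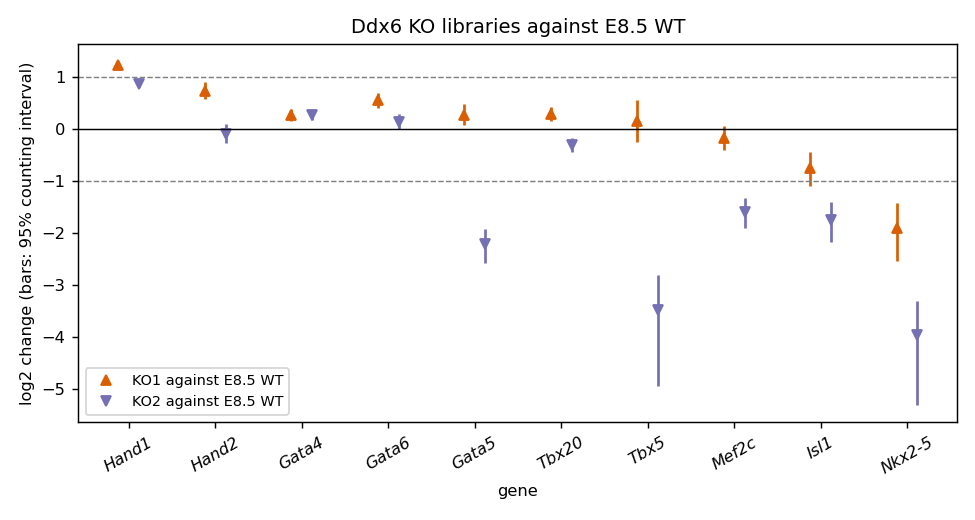
Log2 change of each gene in KO1 and KO2 against E8.5 WT, with bars for the 95% counting interval and dashed lines at the threshold of 1 and -1. Nkx2-5 lies below the lower line in both libraries, Gata5, Tbx5, Mef2c and Isl1 in KO2 but not in KO1, and Hand1 lies above the upper line in KO1 and under it in KO2.

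The spread between the KO libraries was set against these differences in edgeR's two-sided quasi-likelihood test. It called 0 of 14393 genes after Benjamini-Hochberg adjustment (0%), and 0 of the 10. The deleted gene Ddx6 was not called either, with an edgeR adjusted p of 0.196, so that a gene left uncalled is not shown to be unchanged. Without adjustment the same edgeR fit placed 1052 genes under a p of 0.05, with 2 of the 10 among them, Hand1 and Nkx2-5. Both had an edgeR adjusted p of 0.666. DESeq2 called 31 genes (0.215% of all), of which Hand1 was the only one of the 10, with an adjusted p of 0.00399. Ddx6 was among the genes that DESeq2 called. The WT library had no replicate, so that these tests took their spread from the KO pair alone.

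Nkx2-5 (chromosome 17, 26838664 to 26845009, minus strand, GRCm38) is among the earliest markers of cardiac progenitors. It had in turn 6, 188, 33 and 10 reads. Both KO libraries lay below E8.5 WT and above E7.5 WT, KO2 close to the latter. The level was 3.89-fold lower in KO1 (log2 change -1.91, interval -2.54 to -1.42) and 18.6-fold lower in KO2 (-3.95, interval -5.30 to -3.31). The mean log2 change was -2.93 ± 1.44 (SD, n = 2), and the edgeR adjusted p was 0.666.

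Isl1 (chromosome 13, 116298281 to 116309689, minus strand), the factor of the second heart field that also serves motor neurons, had in turn 45, 271, 109 and 78 reads, with both KO libraries between the WT stages. It was 1.70-fold lower than E8.5 WT in KO1, under the threshold, and 3.45-fold lower in KO2. The mean log2 change of Isl1 was -1.26 ± 0.71 (SD, n = 2), with an edgeR adjusted p of 0.666. Mef2c (chromosome 13, 83504034 to 83667080, plus strand), which works in cardiac and skeletal muscle and in endothelium, had in turn 34, 413, 250 and 134 reads, and KO2 was the lower of the KO libraries. It differed from E8.5 WT by -0.17 on the log2 scale in KO1, with an interval of -0.41 to 0.06 that includes 0, and was 3.06-fold lower in KO2.

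Tbx5 (chromosome 5, 119832668 to 119885219, plus strand) acts in the first heart field, the atria and later the forelimb. It had in turn 5, 124, 94 and 9 reads. KO1 lay beside E8.5 WT and KO2 beside E7.5 WT. The log2 change against E8.5 WT was 0.15 in KO1 (interval -0.25 to 0.55) and -3.49 in KO2 (-4.93 to -2.80), while the mean of -1.67 ± 2.57 (SD, n = 2) describes neither. Gata5 (chromosome 2, 180325133 to 180334699, minus strand), a factor of endocardium and endoderm, showed the same division, with 48, 446, 368 and 93 reads. It was 1.21-fold higher than E8.5 WT in KO1 and 4.76-fold lower in KO2. Tbx20 (chromosome 9, 24718138 to 24774303, minus strand), which acts in chamber myocardium, was the exception among the 6 genes that were higher at E8.5. Its 308, 1108, 918 and 883 reads gave log2 changes from E8.5 WT of 0.28 (KO1) and -0.32 (KO2).

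The RefSeq promoter table (GRCm38.p6, 250 bases before and 50 after a transcript start) held 8 windows for 6 of the 10 genes, and had no entry for Gata4, Gata6, Hand1 and Tbx5. Against E8.5 WT, Nkx2-5 was called lower in both KO libraries, Gata5 in KO2 only and Tbx20 in neither. Sequence before a RefSeq start is shown for these 3 genes, which were all higher at E8.5. Each is cut to the bases outside GENCODE exons and runs 5′ to 3′ on the strand of the gene. The stretch of Nkx2-5 precedes a start that lies inside the GENCODE span of the gene given above, and so falls between exons of a longer transcript. Capitals mark matches, on either strand, to the E-box CANNTG of bHLH proteins such as Hand1 and Hand2. Matches to the word AGATAA of GATA factors, the word TNAAGTG of NK2 factors such as Nkx2-5 and the word AGGTGT of T-box factors would be marked as well.
Nkx2-5, chr17:26841609-26841815, minus strand: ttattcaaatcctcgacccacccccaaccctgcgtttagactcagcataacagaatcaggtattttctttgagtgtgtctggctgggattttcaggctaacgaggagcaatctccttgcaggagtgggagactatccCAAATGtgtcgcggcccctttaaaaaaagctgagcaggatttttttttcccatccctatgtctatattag
Gata5, chr2:180334700-180334929, minus strand: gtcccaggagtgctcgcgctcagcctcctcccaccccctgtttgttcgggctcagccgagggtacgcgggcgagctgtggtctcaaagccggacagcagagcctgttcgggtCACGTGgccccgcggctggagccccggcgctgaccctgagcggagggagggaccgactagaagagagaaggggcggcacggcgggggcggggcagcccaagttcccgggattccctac
Tbx20, chr9:24774304-24774553, minus strand: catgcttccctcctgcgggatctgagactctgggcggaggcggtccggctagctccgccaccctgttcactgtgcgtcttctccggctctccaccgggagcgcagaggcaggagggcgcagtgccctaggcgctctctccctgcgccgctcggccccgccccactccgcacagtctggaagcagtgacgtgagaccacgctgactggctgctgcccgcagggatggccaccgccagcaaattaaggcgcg

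An E-box was the only one of the 4 words in the stretches of Nkx2-5 (113 bases before the start) and Gata5 (138 bases before it), and Tbx20 held none of them. Over the full windows an E-box was in 6 of 8, against 72.3% of the 32851 promoters in the table. The GATA word was in 2 of 8 (11.2% of all promoters), those of Hand2 and Isl1, the T-box word in 1 of 8 (13.7%), a window of Mef2c, and the NK2 word in 0 of 8 (11.5%). The T-box word can share bases with an E-box.

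Hand1 (chromosome 11, 57828705 to 57832818, minus strand) was the only gene of the 10 called higher in a KO library than in E8.5 WT. It had in turn 2570, 2229, 3544 and 4028 reads, which after scaling to library size placed both KO libraries above both WT libraries. Against E8.5 WT it was 2.33-fold higher in KO1 (log2 change 1.22, interval 1.14 to 1.30) and 1.82-fold higher in KO2 (0.86, interval 0.79 to 0.94), a mean log2 change of 1.04 ± 0.25 (SD, n = 2). Its log2 changes from E7.5 WT were 0.97 and 0.61. The sum of the trophoblast giant cell list, Ascl2 included, stood at 2.62 CPM in KO1, where Hand1 was at 422 CPM. It stood at 735 CPM in KO2, where Hand1 was at 330.5 CPM. The marker Prl3d1, a placental lactogen, had in turn 27, 1, 3 and 4156 reads. The part of these cells in the level of Hand1 was not tested.

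Hand2 (chromosome 8, 57320983 to 57324633, plus strand), the paralog of the second heart field and the branchial arches, had in turn 504, 546, 618 and 507 reads, with KO1 above the other libraries after scaling. It was 1.66-fold higher than E8.5 WT in KO1, under the threshold, and differed by -0.09 on the log2 scale in KO2 (interval -0.27 to 0.08). Markers of the allantois and extraembryonic mesoderm, of which 6 of 6 were kept, summed in turn to 202, 540, 780 and 442 CPM. Most of each sum came from Ahnak, at 117.1, 274.8, 426.5 and 292.5 CPM, and Pmp22, at 40.27, 147.5, 233.3 and 109.5 CPM. Of the 6, Tbx4 had 20, 799, 56 and 5 reads and Hoxa13, a factor of the posterior body, had 4, 19, 3 and 5. Both were called lower in both KO libraries (1.79% of all genes), whereas Postn, a matrix protein, had 38, 124, 409 and 93 reads. None of the 6 was at 0 in any library. Their part in the levels of Hand1 and Hand2 was not tested.

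Gata4 (chromosome 14, 63198922 to 63271692, minus strand) and Gata6 (chromosome 18, 11052064 to 11085635, plus strand) kept close to E8.5 WT. Gata4 had in turn 1677, 1419, 1161 and 1691 reads. Its log2 changes of 0.26 (KO1) and 0.27 (KO2) against E8.5 WT had a mean of 0.26 ± 0.004 (SD, n = 2), the closest pair among the 10 genes. Gata6 had 425, 785, 783 and 852 reads and changes of 0.54 and 0.13. Parietal endoderm markers, of which 10 of 10 were kept and none was at 0, summed to 2209, 2150, 2540 and 2891 CPM in the 4 libraries. In both KO libraries 0 of them were called lower (1.79% of all genes) or higher (3.44%). In KO2, 1 was called higher (9.41% of all genes), which was Thbd with in turn 20, 56, 30 and 838 reads. Visceral endoderm markers, also 10 of 10 with none at 0, summed to 7281, 7437, 4432 and 4261 CPM. Of the latter, 3 were called lower in both KO libraries (1.79% of all genes) and 0 higher (3.44%), the 3 being Apoa1, Rbp4 and Apom, which encode plasma carrier proteins. Their part in the GATA levels was not tested.

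Against E7.5 WT, which shares the KO libraries with the comparison above, KO1 had 7 of the 10 genes called higher (13.2% of all genes) and KO2 had 2 (10.9% of all). Both had Tbx20 and Mef2c higher, 2 of 10 where 6.91% of all genes were, and 0 lower, where 2.70% were. In KO1 the 7 were the 6 genes that were higher in E8.5 WT, and Gata6. Tbx5 was 26.6-fold above E7.5 WT in KO1 and 1.76-fold in KO2, where 9 reads stood against 5 and the log2 interval ran from -0.92 to 2.74. Nkx2-5 was 7.79-fold and 1.63-fold above it, the latter with an interval of -0.90 to 2.45. A difference of these 2 genes between KO2 and E7.5 WT was therefore not detectable at this depth.

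**Figure D3:**
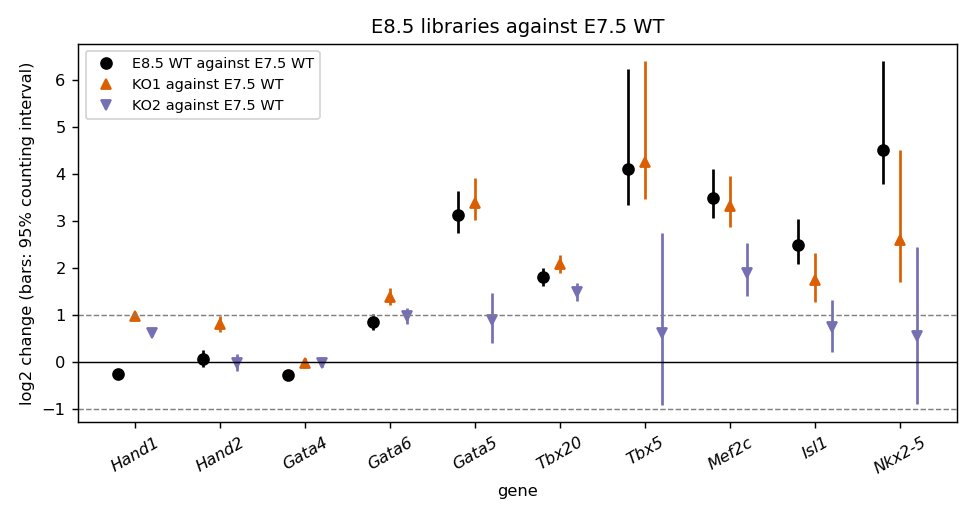
Log2 change of each gene in E8.5 WT, KO1 and KO2 against E7.5 WT, with bars for the 95% counting interval and dashed lines at 1 and -1. For Gata5, Tbx5, Mef2c and Tbx20 the points of KO1 lie beside those of E8.5 WT, and for Gata5, Tbx5, Isl1 and Nkx2-5 those of KO2 lie between 0.55 and 0.89.

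Between the KO libraries, 4 of the 10 genes were called lower in KO2 than in KO1 (4.89% of all genes) and 0 higher (5.99%). Tbx5 was 15.2-fold, Gata5 5.74-fold, Nkx2-5 4.79-fold and Mef2c 2.71-fold lower in KO2, and Isl1 fell just short of the threshold. Isl1 passed it, which made 5 genes, with DESeq2 size factors (-1.01), with plain CPM and with a prior count of 0.5. The median log2 change of the 10 was -0.91. The libraries differed in the morphological stage of their embryos, in their marker content and in the animals pooled, and these cannot be told apart.

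For each gene the nearest profiles over the 4 libraries were sought among 11932 other genes with at least 50 reads in a library, by the Euclidean distance between centred log2 CPM values. Each profile has 4 points and all genes share the same 4 libraries, so that such likeness is a description. Tbx5 was nearest to Plagl1 (distance 0.08), which had in turn 33, 603, 437 and 50 reads, and to Alpk2 (0.09). Gata5 was nearest to Ccdc141 (0.15) and to Tek (0.31), the endothelial angiopoietin receptor, which had 73, 629, 590 and 112 reads. Isl1 was nearest to Gli1 (0.17), a Hedgehog effector, with 109, 583, 244 and 158 reads, and to Fbn2 (0.18). The nearest to Nkx2-5, at larger distances of 0.47 and 0.58, were Pax2, a neural and renal factor, and the neural factor Pax6. Pax2 had 17, 352, 77 and 17 reads, and Pax6 had 10, 180, 31 and 14 reads. Mef2c was nearest to Ptprz1 (0.17) and Tbx20 to Mmp16 (0.06). Gata4 was nearest to Phf23 (0.02), Gata6 to Scarb2 (0.04), Hand2 to Akr1b8 (0.04) and Hand1 to Stx1a (0.13).

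Other genes around these factors were counted by lists. Early cardiac mesoderm regulators, which act in and just after the primitive streak, had 0 of 10 called lower in KO1 (3.31% of all genes) or KO2 (5.91%). Called higher were 1 in KO1, where 4.97% of all genes were, and 4 in KO2, where 9.41% were. The 1 in KO1 was Smarcd3, a chromatin remodelling subunit, and the 4 in KO2 were Mesp1, Mesp2, Eomes and Mixl1. Mesp1, a marker of the earliest cardiac mesoderm, had in turn 570, 52, 52 and 741 reads, so that it was high in E7.5 WT and KO2, the libraries in which Tbx5 and Nkx2-5 had at most 10 reads. Kdr, a receptor of vascular and cardiac progenitors, had 669, 2259, 1491 and 1255 reads.

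Cofactors and partner factors had 3 of 13 genes called lower in both KO libraries, against 1.79% of all genes, and 0 higher, against 3.44%. They were Smyd1, a muscle methyltransferase with 2, 148, 11 and 3 reads, Nkx2-6, an NK2 relative with 1, 22, 5 and 0 reads, and Gata1, the erythroid GATA factor, with 205, 65, 5 and 12 reads. Nkx2-6 reached 10 reads only in E8.5 WT, and so could not be called higher. Myocd, a muscle coactivator of Srf, had 4, 208, 75 and 42 reads and log2 changes of -0.91 and -2.24 against E8.5 WT. Srf itself had log2 changes of -0.10 and -0.003, and the other MEF2 genes with enough reads, Mef2a and Mef2d, of -0.14 and -0.30 and of 0.30 and 0.40. Regulators of the second heart field and the chambers had 2 of 19 called lower in both, Tbx18 and Nr2f2, which act in the sinus venosus and atria (1.79% of all genes), and 0 higher (3.44%). In KO2, 13 of these 19 were called lower (5.91% of all genes), these 2 included, and in KO1 only these 2 were (3.31%). Tbx18 had 7, 35, 2 and 7 reads, reached 10 reads only in E8.5 WT and so could not be called higher. Nr2f2 had 92, 369, 105 and 92 reads, and Tbx1, a factor of the second heart field with 17, 209, 80 and 42 reads, was called in KO2. The list medians against E8.5 WT were -0.44 in KO1 and -1.38 in KO2.

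Target genes of these factors, mostly of the sarcomere, had 10 of 19 called lower in both KO libraries (1.79% of all genes) and 0 higher (3.44% of all). Of the 10, Mybpc3, Csrp3 (0, 30, 8 and 1 reads) and Gja5 (5, 23, 2 and 7) reached 10 reads only in E8.5 WT. By the filter, these genes could not be called higher. The medians were -1.21 in KO1 and -1.90 in KO2, or -1.52 and -1.90 with genes at or under 3 reads set at that count. Mybpc3, a myosin-binding protein of the thick filament, had 0, 168, 6 and 5 reads, Actc1 was 10.9-fold and 17.6-fold lower, and Myh7, the slow cardiac myosin, 7.53-fold and 19.4-fold lower. Myh7 had 14, 705, 64 and 36 reads, and Ttn, the spring of the sarcomere, 0, 235, 34 and 8. Others of the list differed less or went the other way in KO1, where the troponins Tnnt2 and Tnni1 had log2 changes of -0.40 and 1.13, the sodium-calcium exchanger Slc8a1 -0.31 and the calcium release channel Ryr2 -0.55. Tnni1 was the 1 gene of the list called higher in KO1, and Nppb, a natriuretic peptide with 2 reads in E8.5 WT and 54 in KO2, the 1 called higher in KO2. Among signals that induce or pattern the heart, 2 of 13 were called higher in both, the Wnt ligand Wnt2b and Nodal (3.44% of all genes), and 0 lower (1.79%). Bmp2 and Bmp4, cardiac inducers, had changes of 0.37 and 0.54 and of 0.67 and -0.37. Aldh1a2, the enzyme of retinoic acid synthesis, had 80, 1723, 1385 and 78 reads, high in E8.5 WT and KO1 and low in E7.5 WT and KO2, as Tbx5 was. Maternal decidua markers had 1 of 4 called higher in both, Prl8a2 (3.44% of all genes). Their sum was in turn 194, 23.6, 38.0 and 164 CPM. Of these sums Prl8a2 gave in turn 110.8, 2.116, 7.621 and 117.6 CPM, and Des 66.59, 11.31, 14.05 and 36.03 CPM. The log2 changes against E8.5 WT in KO1 and KO2 were 0.25 and -0.17 for Dcn, and 0.75 and 0.09 for Cryab. The higher sum in KO2 thus rested on Prl8a2 and Des, and was not shared by Dcn and Cryab.

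**Figure D4:**
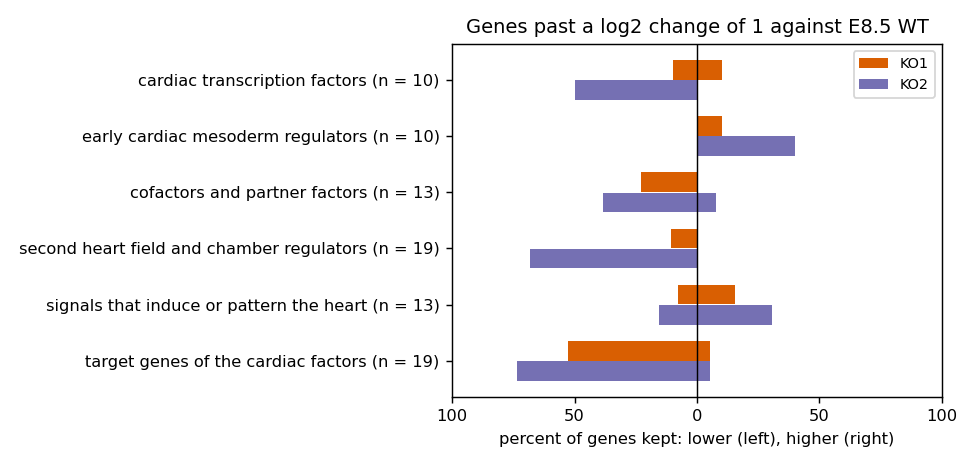
Share of the genes kept in each list that were past a log2 change of 1 against E8.5 WT, lower to the left and higher to the right, in KO1 and KO2. The 10 transcription factors were lower in 10% in KO1 and 50% in KO2, and the target genes in 52.6% and 73.7%, while the early mesoderm regulators had 40% higher in KO2. The target genes include Mybpc3, Csrp3 and Gja5, which reached 10 reads only in E8.5 WT.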

How the data were processed

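RNA-seq measured polyadenylated transcripts in 4 libraries, grouped by their GEO titles. Per the labels and the methods, the authors trimmed reads with Cutadapt 2.8, checked them with FastQC 0.11.7, aligned them to mm10 with HISAT2 2.1.0, sorted them with SAMtools 1.9 and deposited raw read counts per gene over exons, strand-specifically, from featureCounts 2.0.0. These counts were normalized here with trimmed mean of M-values factors over all genes (edgeR 4.0.16, R 4.3.3), genes with at least 10 counts in a library were kept, and log2 changes were taken from log2 CPM with a prior count of 2. Intervals are exact Clopper-Pearson 95% binomial intervals of the reads in a pair of libraries. Reads have no molecular identifiers, so intervals cover counting error only. The quasi-likelihood test (edgeR) used all 4 libraries in 3 groups with 1 residual degree of freedom, with DESeq2 1.42.0 as the alternative. The steps were also run on simulated data in which both KO libraries carried the same change. KO libraries that differ as KO1 and KO2 did were not simulated. Since nothing says that the KO pools came from separate litters, p-values measure the spread between these libraries. RPKM used the longest GENCODE M21 transcript that maps to a RefSeq mRNA. Genes named outside the 10 are those of the lists called in both KO libraries, up to 4 a list by the smaller change, and the nearest profiles. Other genes of the lists were named after their values were seen: Mesp1, Mesp2, Eomes, Mixl1, Smarcd3, Kdr, Myocd, Srf, Mef2a, Mef2d, Tbx1, Bmp2, Bmp4, Aldh1a2, Tnnt2, Tnni1, Tnnc1, Myl4, Myl7, Myh6, Slc8a1, Ryr2, Nppb, Ascl2, Ahnak, Pmp22, Thbd and Postn. Csrp3, Gja5, Des, Dcn and Cryab were also named after their values were seen. The 10 genes and the lists were chosen with earlier results of these data known. Figures were drawn with matplotlib 3.10.9.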

Additional observations from a re-analysis of the deposited data

How the results depend on the processing

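Of 300 values recomputed under other settings, 289 stayed within the limit, which was the SD of the KO pair, the counting interval or, for counts of genes, 1.5 times. Part of this count was fixed in advance. For single genes, leaving out a KO library cannot shift the mean by more than the SD of the pair. The other filters on low counts left the log2 changes of the 10 genes as they were. No direction of a gene called in both KO libraries reversed. A threshold of 2 left 0 of the 10 genes lower in both KO libraries than E8.5 WT and 0 higher in both than E7.5 WT, since Nkx2-5 was at -1.91 in KO1 and Mef2c at 1.88 and Tbx20 at 1.48 in KO2. Without KO replicate 1, 5 of the 10 were lower than E8.5 WT and without KO replicate 2, 1 was, so that the range was 1 to 5, and for genes higher than E8.5 WT it was 0 to 1. For genes higher than E7.5 WT it was 2 to 7. Without KO replicate 2 the change of Tbx5 against E8.5 WT reversed to 0.147, and without KO replicate 1 it was -3.485. DESeq2 called 1 of the 10, Hand1, where edgeR called 0, also with the E8.5 libraries alone, no filter or DESeq2 size factors. The cause was not tested. Gata4, with the smallest SD, moved to 0.25 with DESeq2 size factors and 0.32 with plain CPM against E8.5 WT, and to -0.06 and 0.03 against E7.5 WT. Plain CPM put the median gene of KO2 at 0.12 against E7.5 WT, compared with 0.07 under the main scaling. No paired analysis was possible because only the KO libraries carry replicate numbers. Depth limits Tbx5 and Nkx2-5, with at most 10 reads in E7.5 WT and KO2.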
